A study of Mus musculus with 8 samples.

Results

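The HMGB genes Hmgb1, Hmgb2 and Hmgb3 were followed through 2 circadian cycles in RNA of the mouse suprachiasmatic nucleus (SCN), the pacemaker of the hypothalamus. They were taken by gene symbol from each table, which gave 3 of 20741 genes. The same symbols gave 3 of 15290 genes counted on the opposite strand, 46 of 292239 exons, 18 of 176269 introns and 21 of 229190 splice junctions. The family was selected on the gene-table read counts of Hmgb3, which differed between times of day, so gene-level differences between times are given below as a description. Calls of Hmgb3 over times of day belong to that choice and test nothing.

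Tissue came from C57/BL6 mice held on a cycle of equal light and dark and then moved to darkness, and no genetic change or drug is named in the labels. A library was made every 6 h over 2 days, 8 in all, each from a pool of equal RNA of 3 mice. The labels name an earlier start of collection than CT22, the time in the title of the first library. Times here follow the titles. Circadian time (CT) 4 and CT10 form the subjective day, when mice rest, and CT16 and CT22 the subjective night. Each circadian time has 2 libraries, replicate 1 from the first cycle (22 to 40 h) and replicate 2 from the second (46 to 64 h). Pooling means that a value stands for several animals at once, and the ages and sexes of the mice are not given in the labels.

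HMGB proteins are small, abundant chromatin proteins. Each carries a pair of HMG boxes, folds that bind the minor groove and bend DNA, followed by an acidic tail. They bind with little regard to sequence, exchange quickly with chromatin, and compete with linker histones for access to nucleosomes. Hmgb1 is the form found in most cell types, and its protein also acts outside cells as an alarm signal of injury. Hmgb2 is best known from dividing cells, germ cells and neural progenitors. Hmgb3 is known from embryonic tissue and blood stem cells, and lies on the X chromosome.

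The promoters are shown because the members share a motif there that played no part in their choice. The windows come from RefSeq on GRCm38.p6, run from 250 bases before to 50 bases after an annotated start, and matched all 3 genes, with 2 starts for Hmgb1. Capitals mark the CCAAT box CCAAT, the E-box CACGTG that clock activators can bind, and TGACG, a part of the cAMP response element. The first line is the upstream Hmgb1 start at chr5:149053008-149053307 on the minus strand and the second its other start at chr5:149051567-149051866 on the same strand. Hmgb2 follows at chr8:57511593-57511892 and Hmgb3 at chrX:71555667-71555966, both on the plus strand.
Hmgb1, upstream start: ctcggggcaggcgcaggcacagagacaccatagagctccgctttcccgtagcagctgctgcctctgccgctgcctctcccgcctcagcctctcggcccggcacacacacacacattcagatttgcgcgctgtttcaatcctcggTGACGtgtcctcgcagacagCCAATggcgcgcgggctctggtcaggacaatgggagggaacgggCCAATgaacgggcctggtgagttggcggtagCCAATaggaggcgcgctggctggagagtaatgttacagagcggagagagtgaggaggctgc
Hmgb1, downstream start: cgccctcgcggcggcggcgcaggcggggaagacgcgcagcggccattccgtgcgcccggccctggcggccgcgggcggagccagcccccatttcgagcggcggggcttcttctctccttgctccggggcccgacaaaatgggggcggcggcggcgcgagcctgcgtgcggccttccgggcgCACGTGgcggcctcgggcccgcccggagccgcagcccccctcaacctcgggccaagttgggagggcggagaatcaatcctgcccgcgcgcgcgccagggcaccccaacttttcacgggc
Hmgb2: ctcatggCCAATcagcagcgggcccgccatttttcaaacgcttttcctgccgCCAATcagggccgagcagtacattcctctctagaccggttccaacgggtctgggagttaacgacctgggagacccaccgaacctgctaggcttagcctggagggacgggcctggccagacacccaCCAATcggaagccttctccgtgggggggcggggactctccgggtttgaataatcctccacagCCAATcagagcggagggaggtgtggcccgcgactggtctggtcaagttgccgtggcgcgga
Hmgb3: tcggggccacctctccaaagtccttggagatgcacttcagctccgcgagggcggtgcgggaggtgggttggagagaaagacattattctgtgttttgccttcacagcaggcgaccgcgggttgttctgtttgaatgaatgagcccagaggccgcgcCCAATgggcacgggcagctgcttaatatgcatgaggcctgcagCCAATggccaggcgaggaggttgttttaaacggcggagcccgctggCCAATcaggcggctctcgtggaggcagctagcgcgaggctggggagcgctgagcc

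Of these windows, 3 held several CCAAT boxes in the direction of the gene, which is the letter pattern bound by the factor NF-Y. The upstream Hmgb1 window had 3, at positions -86, -42 and -11 from the start. The Hmgb2 window had 4, at -243, -198, -73 and -11. The Hmgb3 window had 3, at -94, -51 and -5, spaced by 43 and 46 bases. Of all 32851 promoter windows in the table, 37.4% held at least 1 CCAAT on either strand and 3.37% held at least 3. The downstream Hmgb1 window held none, but had the E-box at -69, a motif of 7.15% of all windows. Of the Hmgb1 junction reads into exon 2, described below, 98.6% came from a single first exon and 1% from a nearer one. Those first exons are placed on mm9 and were not matched to the 2 windows, so use of the downstream start was not measured. TGACG, present in 20.8% of all windows, was found once in the upstream Hmgb1 window, at -106. No match to the full response element TGACGTCA (1.79% of windows), to the D-box TTANGTAA (2.32%), to AGGTCA (16.3%) or to TATAAA (13.6%) lay in the 4 windows, on either strand. GC content was 63.0% and 77.0% for the 2 Hmgb1 windows, 62.0% for Hmgb2 and 61.3% for Hmgb3, against a median of 52.7% over all windows. A match is a pattern of letters and was not tested as a binding site.

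Per length, Hmgb1 was the most abundant member and Hmgb2 the least. Levels in CPM (read counts scaled to a common library size) per kilobase of the longest coding transcript, averaged over all 8 libraries, came to 63.1 ± 2.38 for Hmgb1, 27.3 ± 6.99 for Hmgb3 and 2.84 ± 0.684 for Hmgb2 (SD, n = 8). The ranges were 59.98 to 67.1, 18.2 to 35.7 and 2.16 to 3.99, so the order of the members was the same in every library. Hmgb1 made up 67.7% of the summed level of the 3 genes, Hmgb3 29.3% and Hmgb2 3.05%. The fourth family gene, the testis form Hmgb4, had 1 read in 1 library.

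Hmgb3 was the member that followed the time of day (mm9 chromosome X, 68809077 to 68813952, ENSMUSG00000015217). By read count it had 607 and 692 reads at CT4 (replicates 1 and 2), 624 and 675 at CT10, 348 and 369 at CT16, and 441 and 482 at CT22. In CPM, the scale used from here on for gene levels, this was 54.5 and 62.3 at CT4, 55.4 and 60.6 at CT10, 31.8 and 33 at CT16, and 39.5 and 43.8 at CT22. All 4 day libraries lay above all 4 night libraries, and CT16 was the lowest time in both cycles.

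Day averaged 58.2 ± 3.83 CPM for Hmgb3 and night 37.0 ± 5.65 CPM (SD, n = 4 each), a fitted day over night ratio of 1.58 (log2 difference 0.66 ± 0.11, SE). The levels at single times were 58.4 ± 5.51 CPM at CT4, 58 ± 3.67 at CT10, 32.4 ± 0.876 at CT16 and 41.6 ± 3.06 at CT22 (SD, n = 2 each). CT4 and CT10 overlapped, while the libraries of CT10 lay above those of CT22, and those of CT22 above those of CT16. Between dusk (CT10 and CT16) and dawn (CT4 and CT22) the Hmgb3 libraries overlapped, at 31.8 to 60.6 and 39.5 to 62.3 CPM. The log2 dusk minus dawn difference was -0.18 ± 0.11 for Hmgb3, -0.02 ± 0.24 for Hmgb2 and 0.01 ± 0.08 for Hmgb1 (SE), where 51.4% of all genes lay above 0 and 3 genes (0.0197%) were called. A 24-h curve fitted to all libraries had its peak at CT5.99 ± 0.59 h and a peak-to-trough ratio of 1.96 (log2 0.97 ± 0.15, SE). The authors' deposited table gives Hmgb3 a peak at 7 h in their JTK rhythm test. Its JTK adjusted p there was 0.0565, and its q-value was far higher and equal to those of Hmgb1 and Hmgb2. Hmgb3 thus did not pass that test at the limit used below.

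The pattern of Hmgb3 was present in both cycles. In the second cycle day averaged 61.4 ± 1.16 CPM and night 38.4 ± 7.64 CPM (SD, n = 2 each), a ratio of 1.60. In the first cycle the averages were 55.0 ± 0.691 and 35.6 ± 5.45 CPM for day and night, a ratio of 1.54. Hmgb3 is 1 of the 17 genes (0.112% of 15217) that edgeR calls rhythmic at an adjusted p under 0.05, and 1 of 290 genes (1.91%) with every day library above every night library. Both belong to the contrast behind the choice of the family and are no separate evidence. The rhythm call was lost when any of 6 libraries was left out, all except CT4 replicate 1 and CT22 replicate 2. The day against night call was lost without any of 5, namely CT4 replicate 2, both CT10 and both CT16 libraries. Over these leave-outs the log2 day minus night difference ranged from 0.60 to 0.74.

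**Figure D1:**
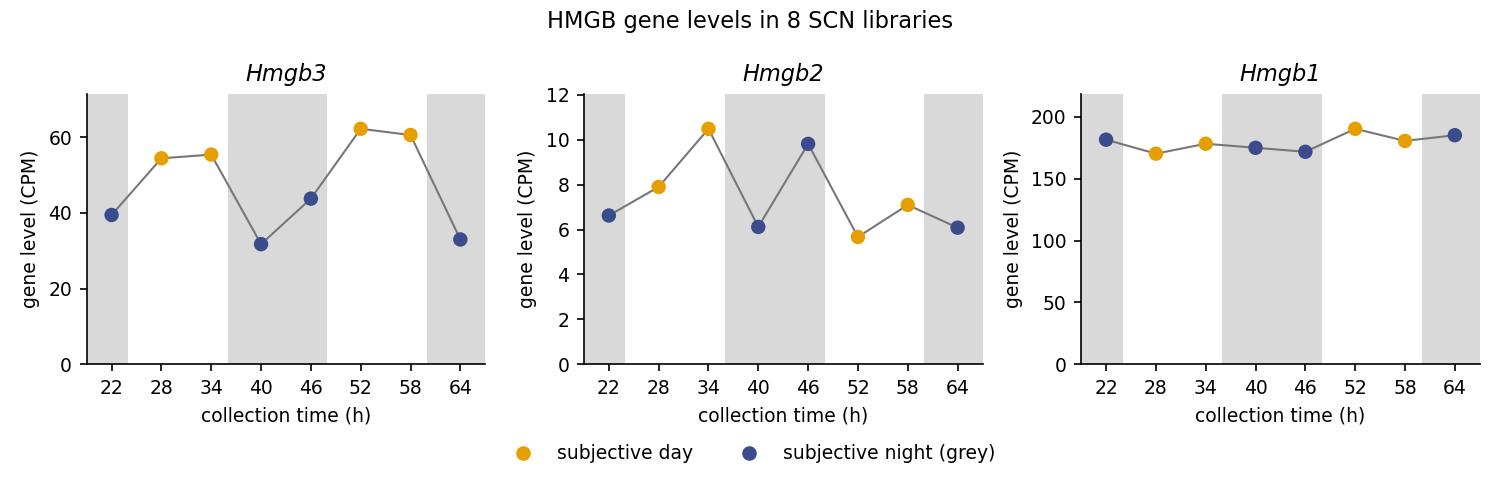
Gene level in CPM (y axis, from 0) of Hmgb3, Hmgb2 and Hmgb1 against collection time in hours (x axis), 1 point a library, with day points orange and night points blue on grey. The Hmgb3 points of the day sit between 54.5 and 62.3 CPM and those of the night between 31.8 and 43.8 CPM, while day and night overlap for the other 2 genes.

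Hmgb2 was low, and its libraries did not order by time of day in the same way in both cycles (mm9 chromosome 8, 59990624 to 59994999, ENSMUSG00000054717). It had 88 and 63 reads at CT4 (replicates 1 and 2), 118 and 79 at CT10, 67 and 68 at CT16, and 74 and 108 at CT22. The highest libraries were CT10 replicate 1 with 10.5 CPM and CT22 replicate 2 with 9.81 CPM, and the lowest was CT4 replicate 2 with 5.67 CPM. Day averaged 7.79 ± 2.02 CPM and night 7.16 ± 1.79 CPM (SD, n = 4 each), with overlapping libraries and a fitted log2 day minus night difference of 0.12 ± 0.24 (SE). In the second cycle the day average was 0.803 times that of the night, and in the first cycle 1.44 times. Each neighbouring pair in the order of circadian times overlapped.

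Hmgb1 hardly moved (mm9 chromosome 5, 149858057 to 149865114, ENSMUSG00000066551). It had 1897 and 2115 reads at CT4 (replicates 1 and 2), 2006 and 2010 at CT10, 1917 and 2070 at CT16, and 2028 and 1890 at CT22. Day averaged 179.8 ± 8.27 CPM and night 178.3 ± 6.08 CPM (SD, n = 4 each), a fitted log2 difference of 0.01 ± 0.08 (SE), with overlap between all neighbouring times. Across the 8 libraries its coefficient of variation was 3.78%, where counting error alone at this depth gives 2.24%. The same figures were 24.1% and 11.0% for Hmgb2, and 25.6% and 4.35% for Hmgb3. GENCODE names 14 pseudogenes of Hmgb1 and 1 of Hmgb3, so reads of Hmgb1 could be shared with near-identical copies and its count is uncertain to that extent. In the gene table, Hmgb1-ps2 had 6 reads in 1 library and Hmgb1-ps5 had 2 reads in another.

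The balance between members can be read within each library. The ratio of Hmgb3 to Hmgb1 reads was 0.324 ± 0.0105 by day, within 0.311 to 0.336, and 0.208 ± 0.0360 by night, within 0.178 to 0.255 (SD, n = 4 each). Being taken within a library, this ratio does not depend on the scaling between libraries. It uses the Hmgb3 counts by which the family was chosen, so its day and night values are not separate evidence. The ratio of Hmgb2 to Hmgb1 reads was 0.0436 ± 0.0122 by day and 0.0404 ± 0.0113 by night (SD, n = 4 each), with overlap.

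Members were next tested for differences that had no part in their choice. Between the second and the first cycle, the log2 difference was 0.05 ± 0.08 for Hmgb1, -0.11 ± 0.25 for Hmgb2 and 0.13 ± 0.10 for Hmgb3 (SE; edgeR adjusted p 0.999 for each). Mean levels in the second and first cycle were 49.9 ± 14 and 45.3 ± 11.6 CPM for Hmgb3, 7.16 ± 1.86 and 7.78 ± 1.95 CPM for Hmgb2, and 181.9 ± 7.87 and 176.2 ± 4.82 CPM for Hmgb1 (SD, n = 4 each). No gene of 15217 (0.00%) passed this edgeR test, with 543 at an unadjusted p under 0.05 and 0 by DESeq2.

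A 12-h component was tested as CT4 and CT16 against CT10 and CT22. Its log2 value was -0.40 ± 0.22 for Hmgb2 (edgeR p 0.0907, adjusted p 0.731) and -0.18 ± 0.10 for Hmgb3 (p 0.0892, adjusted p 0.727), and 0.02 ± 0.08 for Hmgb1 (adjusted p 0.980). None passed, and neither did any other gene by edgeR (0.00% of 15217), against 1137 at an unadjusted p under 0.05 and 19 by DESeq2.

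By exon, the higher day level of Hmgb3 was seen from exon 3 to exon 5 and in the longer exon 2 row. Its 5′ end was thinly read. All 3 genes have 5 main exons, joined by their most-read junctions, and in each gene exon 4 is 175 bases long. Exon 3 is 146 bases in Hmgb1 and Hmgb2 and 140 bases in Hmgb3. The log2 day minus night difference of Hmgb3 was 0.59 ± 0.18 for exon 3, 0.70 ± 0.15 for exon 4 and 0.64 ± 0.13 for exon 5 (SE). The most-read exon, exon 5 at chromosome X 68812842 to 68813927, had 413 and 497 reads at CT4 (replicates 1 and 2), 415 and 471 at CT10, 279 and 249 at CT16, and 303 and 313 at CT22. The day libraries thus held 413 to 497 reads of exon 5 and the night libraries 249 to 313. Exon 2 (68811228 to 68811382, 155 bases) had 48 and 60 reads at CT4, 71 and 66 at CT10, 40 and 52 at CT16, and 50 and 45 at CT22, so day and night overlapped. In its place, a longer row ending at the same base (68810916 to 68811382, 467 bases) was fitted, with a log2 difference of 0.47 ± 0.23 (SE). That row had 59 and 59 reads at CT4, 74 and 61 at CT10, 42 and 45 at CT16, and 45 and 49 at CT22. In it, every day library lay above every night library. Exon 1 (68809149 to 68809365) held 0 to 12 reads per library, with day and night overlapping, and was not tested. These exons are pieces of the same transcripts and are not separate evidence for the gene.

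Junctions, which count only spliced reads, gave log2 day minus night differences of 0.47 ± 0.30 for intron 2 of Hmgb3, 0.72 ± 0.27 for intron 3 and 0.65 ± 0.21 for intron 4 (SE). The most-read junction, that of intron 4, had 146 and 176 reads at CT4 (replicates 1 and 2), 134 and 138 at CT10, 98 and 69 at CT16, and 85 and 125 at CT22. The day libraries thus held 134 to 176 of these spliced reads and the night libraries 69 to 125. At the junction of intron 2 the day libraries held 37 to 56 reads and the night libraries 28 to 35. Such reads come from the transcripts by which the family was chosen and are not separate evidence. At the junction of intron 1 day and night overlapped, with 0 and 7 reads at CT4, 2 and 7 at CT10, 0 and 7 at CT16, and 15 and 6 at CT22. In Hmgb1 the most-read exon was exon 5 with 9136 reads over all libraries and a log2 difference of -0.03 ± 0.10 (SE), and the most-read junction that of intron 2, with 2249 reads and 0.02 ± 0.16. In Hmgb2 they were exon 5 with 432 reads (0.20 ± 0.25) and the junction of intron 4 with 120 reads (0.16 ± 0.49).

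**Figure D2:**
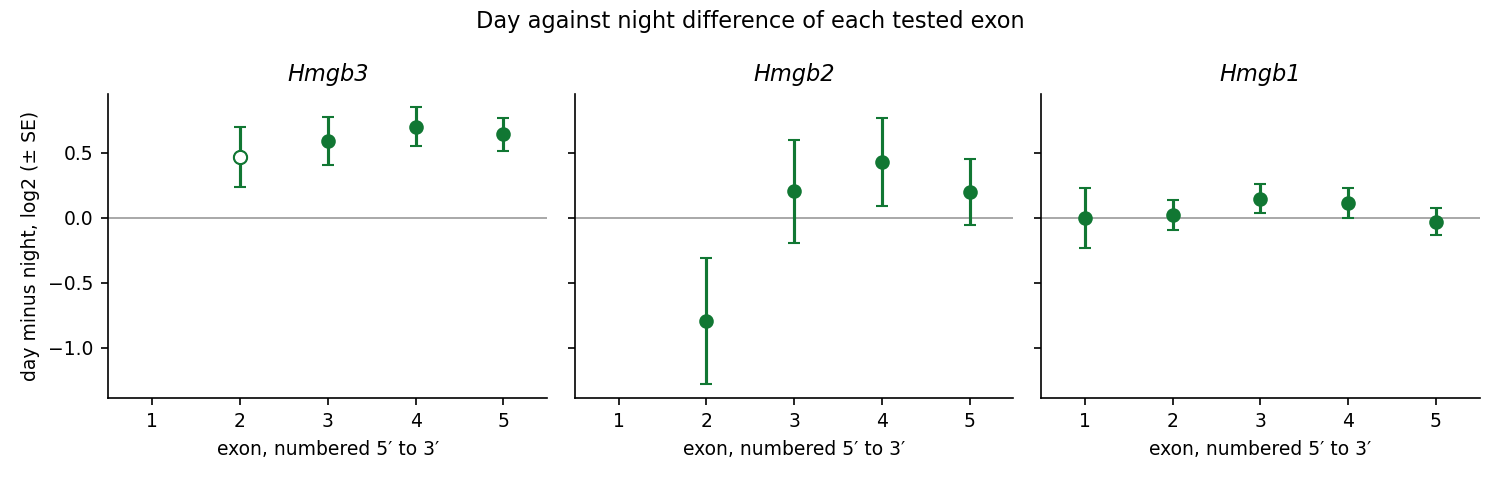
Log2 day minus night difference with its SE (y axis) of each tested exon, numbered from the start of the gene (x axis), for Hmgb3, Hmgb2 and Hmgb1. The open circle at exon 2 of Hmgb3 is the longer, 467-base row that ends with that exon. The 4 points of Hmgb3 lie between 0.47 and 0.70, and those of Hmgb1 between -0.03 and 0.15.

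Exon usage asks whether an exon moves differently from the rest of its gene, which a change of the whole gene does not set. No member passed for day against night or for dusk against dawn (diffSpliceDGE of edgeR, Simes test, adjusted p 1 for each member and axis). Over all genes, 3 of 11779 (0.0255%) passed for day against night and 2 (0.017%) for dusk against dawn. The lowest p among the members was for exon 2 of Hmgb2, at chromosome 8 59991372 to 59991545, with a log2 difference of -0.93 relative to its gene (edgeR p 0.0624, not adjusted). It had 17 and 6 reads at CT4 (replicates 1 and 2), 10 and 10 at CT10, 21 and 22 at CT16, and 22 and 10 at CT22. These groups overlapped, and the counts are small.

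Transcript starts could be compared at the junctions that enter exon 2. In Hmgb1, 787 of 798 such reads came from the exon at 149864476 to 149864603, which is 98.6% (exact 95% binomial interval 97.5% to 99.3%). A nearer first exon at 149862855 gave 8 reads, or 1% (0.434% to 1.97%), of which 7 were in 1 library. In Hmgb3, the exon ending at 68809365 gave 44 of the 63 reads (69.8%, 57.0% to 80.8%) to the main start of exon 2. In Hmgb2 there were 12 such reads. Intervals cover counting error only, since reads are not independent molecules. Junction reads of Hmgb3 increased along the gene, with 44 over all libraries at intron 1, 305 at intron 2, 417 at intron 3 and 971 at intron 4. Hmgb2 had 8, 53, 63 and 120 reads at the same introns, so the 5′ ends of both genes were thinly covered.

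Intron reads, which can come from RNA not yet spliced, were tested because the choice of the members did not use them. The 3 introns of Hmgb3 that could be summed (introns 2, 3 and 4) held 27 and 58 reads at CT4 (replicates 1 and 2), 22 and 18 at CT10, 19 and 8 at CT16, and 14 and 18 at CT22. CT4 was high and the remaining times overlapped. The log2 day minus night difference was 0.9996 ± 0.388 and the log2 peak to trough 1.74 ± 0.55, with a fitted peak at CT4.64 ± 1.21 h (SE). The 24-h test did not pass (edgeR p 0.00929, adjusted p 0.325), while 34 of 12189 genes (0.279%) passed it. Of the 58 reads in CT4 replicate 2, 27 came from intron 2, which had at most 4 reads in any other library. Without that library the log2 peak to trough was 1.01 and the adjusted p 0.761. Intron 4 of Hmgb3 also overlaps an exon of another transcript, and without it, a setting chosen after seeing the data, the log2 peak to trough was 3.38 (edgeR adjusted p 0.225) on 1 to 37 reads per library. The most-read single intron row, at 68809184 to 68811231, held 161 reads over all libraries, and it overlaps other intron rows of the gene.

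Hmgb1 introns held 71 and 68 reads at CT4 (replicates 1 and 2), 107 and 89 at CT10, 79 and 111 at CT16, and 91 and 74 at CT22. Day and night overlapped, and the 24-h test did not pass (edgeR adjusted p 0.716, log2 peak to trough 0.51 ± 0.27, SE). All 4 of its summed introns overlap exons of other transcripts, so these reads can also come from those exons. The most-read was intron 4 with 346 reads. Hmgb2 had 0 to 9 intron reads per library and could not be tested.

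**Figure D3:**
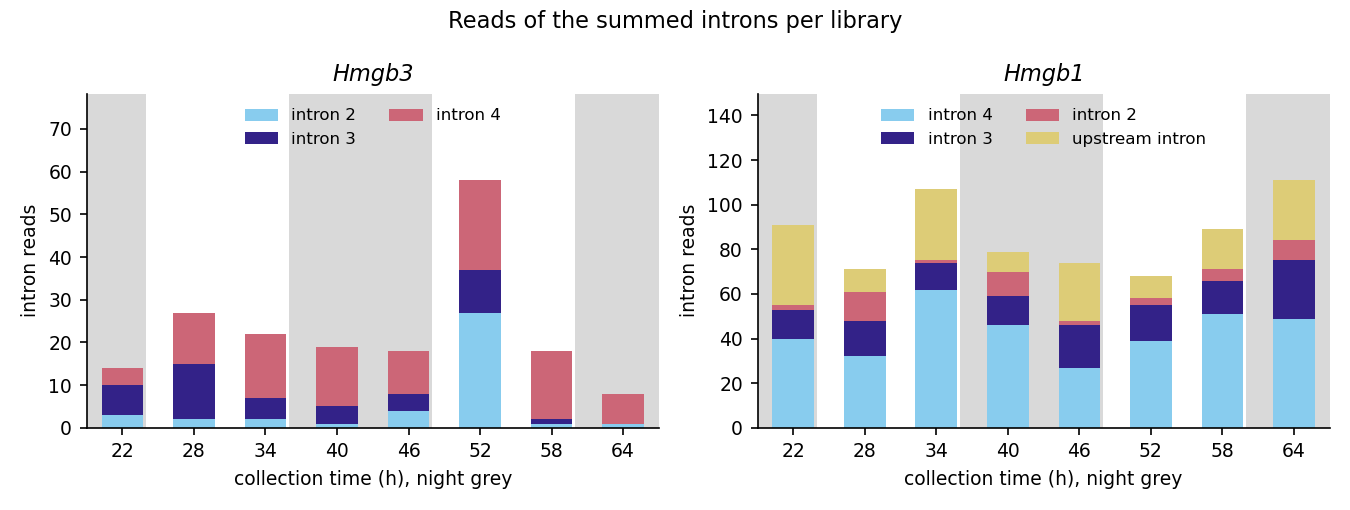
Reads per library (y axis) of the summed introns of Hmgb3 and Hmgb1 against collection time in hours (x axis, night grey), stacked by intron. The tallest Hmgb3 bar, 58 reads at 52 h, has 27 of its reads from intron 2, and the Hmgb1 bars lie between 68 and 111 reads.

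On the opposite strand reads were few. Hmgb1 had 11 to 29 antisense reads per library and its 24-h test did not pass (edgeR adjusted p 0.951). Hmgb3 had 5 and 10 antisense reads at CT4 (replicates 1 and 2), 1 and 6 at CT10, 2 and 3 at CT16, and 8 and 7 at CT22, too few to be tested, and Hmgb2 had 0 or 1. No antisense gene of 3693 (0.00%) passed by edgeR, against 128 at an unadjusted p under 0.05 and 5 by DESeq2.

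The genes whose levels were most like those of Hmgb3 over the 8 libraries were the zinc finger genes Zfp28 (Pearson r 0.985) and Zfp11 (0.972), then Per1 (0.951), Cirbp (0.946) and Nr1d1 (0.946). Per1 and Nr1d1 are clock genes of the repressor arms and Cirbp encodes a cold-inducible RNA-binding protein. Among 11900 genes compared, these had the highest r of log2 CPM, and all values come from the same 8 libraries. Hmgb3 was chosen for its difference between times of day, so genes with such a difference are favoured here. Their likeness is no separate evidence. Zfp28 had 21.4 and 22.8 CPM at CT4 (replicates 1 and 2), 23.1 and 22.2 at CT10, 14.8 and 14.7 at CT16, and 16.7 and 18.3 at CT22, the same order of times in which day lay above CT22 and CT22 above CT16. Per1, which also served with Dbp as a check of the labelled times, averaged 82.0 ± 6.77 CPM at CT4, 86.3 ± 16.2 at CT10, 41.9 ± 0.484 at CT16 and 47.6 ± 3.32 at CT22 (SD, n = 2 each). Dbp, an output gene of the clock, averaged 71.8 ± 7.51, 86.4 ± 9.19, 35.4 ± 4.28 and 35.4 ± 4.85 CPM at the same times.

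Hmgb1 and Hmgb2 were most like other genes. For Hmgb1 they were Fam123b (r 0.973), Trmt1, Sirt6, Glis3 and Sfswap, whose r lay between 0.917 and 0.930 after the first. For Hmgb2 they were Spag7 (0.944), Rnf213, Ifih1, Wwp2 and Hinfp, between 0.905 and 0.926. Each set holds the highest of 11900 correlations over 8 libraries, and no r was tested against chance. Hmgb1 itself varied by only 3.78%, where counting error alone gives 2.24%. Between members r was 0.12 for Hmgb1 and Hmgb3, 0.29 for Hmgb2 and Hmgb3, and -0.61 for Hmgb1 and Hmgb2, over 8 libraries.

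**Figure D4:**
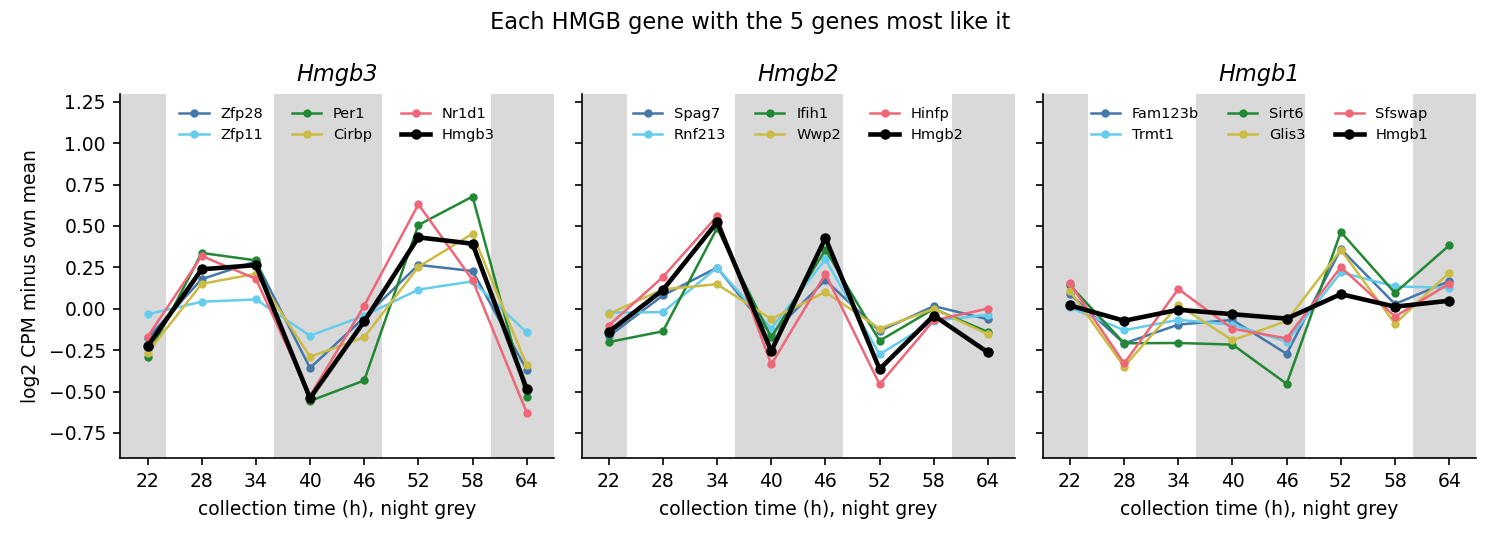
Log2 CPM minus each gene's own mean (y axis) against collection time in hours (x axis, night grey) for Hmgb3, Hmgb2 and Hmgb1 in black, each with the 5 genes of highest Pearson r in colour. Hmgb3 and its companions, with r of 0.946 to 0.985, are high in both days and lowest at 40 and 64 h.

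Genes that work with or beside HMGB proteins were set next to the family in 6 lists, none of which had a member called for day against night, or for a 24-h rhythm, by edgeR. Over all 15217 genes tested, 11 (0.0723%) were called higher and 5 (0.0329%) lower by day, 48.0% had a positive difference, and the median log2 day minus night difference was -0.01. Of 16 tested other HMG-box chromatin genes and partners, 4 were above 0 and 12 below, with a median log2 difference of -0.09. Ubtf, the HMG-box factor of ribosomal gene transcription, had the lowest p (log2 -0.32 ± 0.08, SE; edgeR 24-h adjusted p 0.357). It had 1049 and 1052 reads at CT4 (replicates 1 and 2), 1080 and 1161 at CT10, 1361 and 1326 at CT16, and 1308 and 1368 at CT22. Every day library lay below every night library, as for 418 of all genes (2.75%). Next were Pbrm1, a subunit of a chromatin remodeller (-0.12 ± 0.09), and Bbx (-0.24 ± 0.11). Their log2 dusk minus dawn differences were -0.28 ± 0.09 and 0.02 ± 0.11 (SE).

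Among the HMGA and HMGN genes, which encode the other high mobility group families, 3 of 5 were above 0 and 2 below, with a median of 0.01. Hmgn5, an X-linked nucleosome-binding gene, had the lowest p (log2 -0.44 ± 0.13, SE; edgeR 24-h adjusted p 0.357). It had 374 and 611 reads at CT4 (replicates 1 and 2), 393 and 368 at CT10, 519 and 555 at CT16, and 608 and 652 at CT22, and day overlapped night through CT4 replicate 2. Hmgn1 (-0.19 ± 0.09) and Hmgn3 (0.07 ± 0.10) followed. Of the linker histone genes, which compete with HMGB proteins at nucleosomes, 3 were tested, with values of 0.35 ± 0.23 for H1f0, 0.20 ± 0.17 for Hist1h1c and -0.39 ± 0.43 for H1fx (SE). The median was 0.20, with none called.

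The 5 tested SET complex genes, partners of HMGB2 in DNA repair and nucleosome handling, had 1 value above 0 and 4 below, a median of -0.03, and the lowest p for Anp32a (-0.18 ± 0.08), then Set (-0.04 ± 0.08) and the repair endonuclease gene Apex1 (0.11 ± 0.13). Of 10 tested receptors and partners of extracellular HMGB1, 4 were above 0 and 6 below, with a median of -0.08. The chemokine gene Cxcl12, whose protein forms a complex with HMGB1 (-0.13 ± 0.10), its receptor gene Cxcr4 (0.07 ± 0.25) and Thbd (-0.56 ± 0.28) had the lowest 24-h p. In the same order, their log2 dusk minus dawn differences were -0.28 ± 0.10, 0.58 ± 0.25 and 0.18 ± 0.28 (SE). Thbd held 91 to 439 reads. Of 10 BAF remodelling genes, 4 were above 0 and 6 below, with a median of -0.07, led by p with Smarcd1 (0.12 ± 0.10), Smarca4 (-0.13 ± 0.09) and Smarcc1 (-0.11 ± 0.10).

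**Figure D5:**
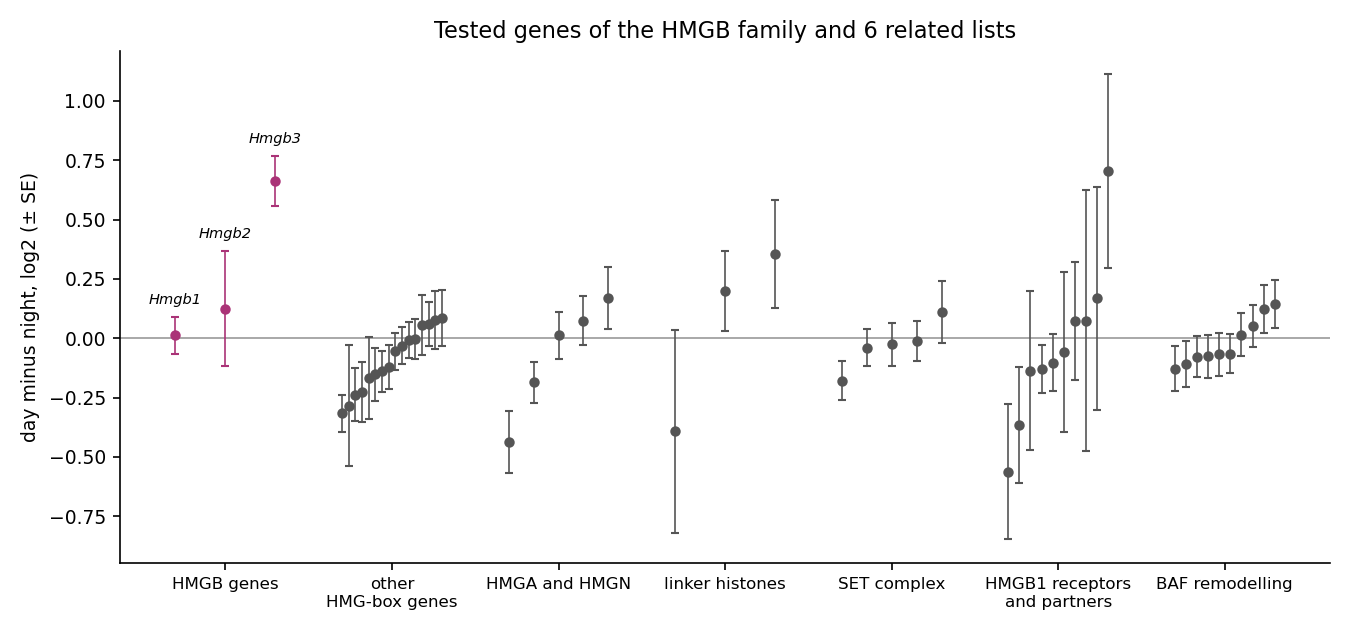
Log2 day minus night difference with its SE (y axis) of the tested genes of the HMGB family and 6 related lists (x axis), each point a gene, sorted within its list. Hmgb3 lies at 0.66 with an SE of 0.11, Hmgb2 at 0.12 and Hmgb1 at 0.01, and the medians of the 6 lists lie between -0.09 and 0.20.

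In pooled tissue, fewer cells of a type and less RNA per cell cannot be told apart, so marker levels are given beside the Hmgb3 difference. All 8 SCN neuron markers (among them Avp, Vip and Six6) had reads, with a summed level of 567 to 813 CPM by day and 467 to 953 CPM by night. Rgs16 and Vipr2 of that list were called, in opposite directions. Oligodendrocyte markers (8 of 8 tested) summed to 4857 to 14589 CPM by day and 7750 to 15051 CPM by night, the lowest library being CT4 replicate 1. Markers of cycling cells, in which HMGB2 is best known, summed to 49.5 to 63.1 CPM by day and 54.3 to 67.8 CPM by night. Of 12 such markers 10 were tested and none was called, and most of the sum was Pcna with a mean of 37.5 CPM, while Mki67 averaged 1.11 CPM. Day and night overlapped in all 3 sums. These are 3 of 11 marker lists, and in the remaining lists the sums overlapped too and no gene was called. Among those, the largest median log2 day minus night differences were 0.36 for blood (4 of 4 genes above 0) and -0.33 for oligodendrocyte precursors (4 of 5 below 0, 1 above). The part of any of these cell types in the Hmgb3 difference was not tested.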

How the data were processed

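Polyadenylated RNA was measured in 8 SCN libraries, each a pool of 3 mice. STAR 2.3.0e and the mm9 genome are named in the submitters' processing notes. The authors deposited whole-number read counts per gene on either strand, intron, exon and junction. They also deposited a JTK adjusted p-value, a q-value and a peak time score (lag, in hours) per feature, per the file headers. How reads were counted is not given in the sources used here. Library totals were nearly equal in 4 tables, with 11123610 to 11131890 sense gene reads, 149603 to 149800 antisense, 4196931 to 4199146 intron and 25232810 to 25232813 exon reads, and ranged more widely, from 3196136 to 3437120, for junctions. With such totals, differences in the antisense or intron share of whole libraries cannot be read from these tables. Overlapping exon rows count the same reads more than once. No column was left without a sample (0).

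The labels state no replicates. Libraries 24 h apart were taken as replicates of a circadian time; this numbering is own and pairs nothing. Every p-value measures spread between pooled libraries, not mice. Replicates of a time differed beyond sampling noise (chi-square per degree of freedom 8.06 to 14.0).

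Counts were tested with edgeR 4.0.16 in R 4.3.3 (quasi-likelihood F test, TMM scaling, at least 10 reads in at least 2 libraries, Benjamini-Hochberg over all features at 0.05). The model held a day-night and a dusk-dawn term (the CT10 and CT16 libraries set against those of CT4 and CT22), tested together as a 24-h curve with 5 residual degrees of freedom. Cycle and 12-h terms were added in turn. For each gene, counts were added over its introns, 104576 in all, with 1 symbol that overlap no other intron of the gene. Intron, antisense, exon and junction levels used the effective library sizes of sense genes. Exon usage (diffSpliceDGE) used 173270 non-overlapping exons, the most-read first. The functions were tested on simulated data with 200 well-read genes changed between day and night. The 24-h test recovered 52.5% of them at 1.5-fold, 86% at 2-fold and 99.5% at 3-fold, with 13, 10 and 13 false calls. Smaller changes could thus be missed. The exon usage test recovered 100% of 199 changes of 3-fold, with 13 false calls. Those changes were in well-read exons simulated with a fixed spread. The rate therefore does not carry over to thinly read exons, such as exon 2 of Hmgb2. Alternatives were DESeq2 1.42.0, other scaling, no filter, other intron sets, an F test per gene, the cycle as a block (added after seeing the data), and leaving out each library. Intervals are exact binomial (scipy 1.17.1).

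The members and lists were chosen with earlier results of these data known. Named genes followed a rule: the members; per member the 5 genes of highest Pearson r with a mean of at least 5 CPM; up to 3 genes of each related list with the lowest 24-h p; each member's most-read exon, intron and junction and its exon of lowest usage p; and Per1 and Dbp. Hmgb4, Mki67, Pcna, Rgs16, Vipr2, Avp, Vip and Six6 were named besides. Of 136 list symbols 133 matched the gene table. Lengths are of the longest coding transcript in GENCODE M21 (2838, 2628 and 1743 bases for Hmgb1, Hmgb2 and Hmgb3).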

Additional observations from a re-analysis of the deposited data

Results flagged for a closer look

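Among the night libraries, Hmgb2 in CT22 replicate 2 stood apart with 9.81 CPM, against 6.08 to 6.62 CPM in the other 3. Its gap to the nearest library was 0.855 of the range of the 4, past the limit of Dixon's outlier test. The same measure was 1 for Hmgb2 antisense reads in CT4 replicate 1 among the day libraries and 1 in CT16 replicate 2 among the night libraries, each a single read against 0 in the other 3. A total of 21 comparisons were examined, which include checks of whether day against night reversed between the cycles. In Dixon's test chance alone marks about 1 in 20 groups of normally spread values. That rate does not cover the cycle checks, nor counts of 0 or 1, where a single read sets the whole range.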

How the results depend on the processing

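Counts of called genes over the whole tables moved with the settings more than the values of the members did. DESeq2 called 100 genes for the 24-h rhythm (17 by edgeR), 60 for day against night (16), 39 for dusk against dawn (3), 19 for the 12-h term (0), 64 genes by introns (34) and 5 by antisense reads (0). With no filter on low counts edgeR called 362, 137 and 239 genes for the 24-h rhythm, day against night and dusk against dawn, 2 for the cycles, 169 for the 12-h term, 124 by introns, 3 by antisense reads, and 7 and 0 genes for exon usage by day against night and dusk against dawn. Of the related lists, Hmgn5 (log2 day minus night -0.43, edgeR adjusted p 0.0412) and Thbd (-0.55, adjusted p 0.0172) were then called. Library sizes of their own gave 20 genes by introns and 1 by antisense reads, summing all introns gave 6 genes, and an F test per gene gave 23 genes for dusk against dawn exon usage. Leaving out 1 library at a time, the count ranged from 7 to 43 for the 24-h rhythm, 4 to 28 for day against night, 3 to 60 for dusk against dawn, 0 to 2 for the cycles, 0 to 33 for the 12-h term, 7 to 32 by introns, 0 to 1 by antisense reads, and 0 to 82 and 0 to 3 for exon usage by day against night and dusk against dawn. The cause of these shifts was not tested.

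The log2 peak to trough of Hmgb3 stayed between 0.98 and 0.99 with DESeq2, other scaling or no filter, on the counts by which it was chosen. By introns its value ranged from 0.83 (all introns) to 3.38 (introns free of exons) over settings that keep all libraries, and from 1.01 to 2.46 over the leave-outs, with no call in any setting that gave an adjusted p. DESeq2 gave none for it. The log2 12-h term of Hmgb2 kept its sign when a library was left out (-0.53 to -0.25). So did the second minus first cycle difference of Hmgb1 (0.0033 to 0.0761). Several other differences of these members reversed. Hmgb1 ranged from -0.0212 to 0.0390 for day minus night, -0.0248 to 0.0358 for dusk minus dawn and -0.0194 to 0.0560 for the 12-h term, and Hmgb2 from -0.0723 to 0.33 for day minus night, -0.23 to 0.17 for dusk minus dawn and -0.40 to 0.10 for the second minus the first cycle (log2). The labels give no replicate numbers, but collection times place the libraries in 2 cycles. With the cycle as a replicate block, a setting chosen after seeing the data, edgeR called 21 genes for the 24-h rhythm, 17 for day against night, 6 for dusk against dawn and 28 by introns, and 1 gene for exon usage by day against night. It changed no call of a member. With 63 to 118 gene reads and 0 to 9 intron reads per library, Hmgb2 is the member that depth limits most, and its introns could not be tested with the filter on low counts. Each time rests on 2 pooled libraries, a 12-h rhythm is seen in a single phase at 6-h sampling, and variation between mice was not measured.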
